A study of Nicotiana benthamiana with 9 samples.

Results

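The plastid genes ndhC, ndhK and ndhJ lie next to each other on the same strand and encode 3 subunits of the chloroplast NDH complex. They were taken by gene name from the deposited table, and all 3 were found among its 106 rows, of which 105 are plastid genes and 1 is a transgene. Leaves of wild-type Nicotiana benthamiana, a relative of tobacco used for transient expression, formed 3 groups of 3 libraries each. One group expressed P19, a viral suppressor of RNA silencing, alone, and the other groups expressed P19 with dPPRe-rpl2, placed in the vector pGWB2 (PWB2 in the labels) or in pMDC32. The factor dPPRe-rpl2 is a designed RNA editing factor built from pentatricopeptide repeats, which are RNA-binding modules, and its name points to the plastid gene rpl2. All groups therefore carried P19, and none was left without it. Replicate 1 of each group is labelled 2 days post infiltration (dpi) and the other replicates 3 dpi, but the series text has 3 dpi throughout. They are biological replicates according to the series text. The set is defined by gene name but was selected on earlier results from the same counts, including the levels of these genes in the P19 libraries. Levels and their extremes are therefore given as a description, the fits below are of the whole table, and no call of an operon gene supports the choice.

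The chloroplast NDH complex resembles complex I of bacteria and mitochondria. It takes electrons from ferredoxin and passes them to plastoquinone, which serves cyclic electron flow around photosystem I and chlororespiration. Its plastid-encoded subunits fall into a membrane arm, to which NdhC belongs (the relative of bacterial NuoA), and a peripheral arm, to which NdhK and NdhJ belong (the relatives of NuoB and NuoC). In tobacco-type plastids the genes are transcribed together, with ndhC first, then ndhK and ndhJ.

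In the deposited table ndhC stands at positions 52159 to 52521, ndhK at 51425 to 52168 and ndhJ at 50843 to 51319, all on the minus strand of the plastid sequence (build not given in the sources used here). Their rows are 363, 744 and 477 nt long. Of the 80 protein-coding rows 74 have a length divisible by 3, which does not by itself show that a row is coding sequence alone. The ndhC and ndhK rows overlap by 10 nt, a gap of 105 nt separates ndhK from ndhJ, and the 3 rows together span 1679 nt. The sources used here do not say how reads in the overlap were counted. The nearest rows downstream of ndhJ are trnF (676 nt away, on the plus strand), trnT and rps4, and those upstream of ndhC are trnM (1927 nt away, on the plus strand), atpE and atpB.

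Libraries held 32457135 to 44392760 counted reads. The operon genes took 12737 to 75155 reads each, and at the lowest of these counts the exact 95% Poisson interval, which covers counting error only, reaches 1.74% to either side. The transgene row had 0, 11 and 4 counts in P19 replicates 1 to 3 and 53090 to 359902 counts in the 6 editor libraries. In the whole table, P19 replicate 1 was unlike the other libraries. It gave 61.1% of its counts to psbA, which encodes the D1 core protein of photosystem II and was the most abundant row of the table, against 44.0% to 52.6% elsewhere. Its TMM factor, which scales a library for its composition, was 0.742 against 0.956 to 1.09. Results below are therefore given with and without that library. Levels are CPM, counts scaled to a common library size, with TMM factors. They are relative to the other plastid rows, so fewer chloroplast-bearing cells and less plastid RNA per cell cannot be told apart, and neither would be seen if it touched all rows alike.

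The P19 libraries held both the lowest and the highest level of each operon gene. For ndhC, P19 replicates 1 to 3 had 491, 1285 and 813 CPM, the pGWB2 libraries 741, 619 and 705 CPM, and the pMDC32 libraries 834, 705 and 651 CPM. Replicate 1 of P19 was below all other libraries and replicate 2 above them, and all 6 editor libraries lay between. For ndhK the P19 libraries had 574, 1982 and 1089.6 CPM, the pGWB2 libraries 1036, 822 and 1093 CPM, and the pMDC32 libraries 1226, 955 and 803 CPM. The highest P19 library exceeded the lowest 3.45 times, against 1.53 times over the 6 editor libraries. For ndhJ the P19 libraries had 507, 1593 and 868 CPM, the pGWB2 libraries 819.8, 696 and 918 CPM, and the pMDC32 libraries 992, 831 and 688 CPM. The groups overlapped for all 3 genes, and P19 replicate 3 lay within the range of the editor libraries.

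**Figure D1:**
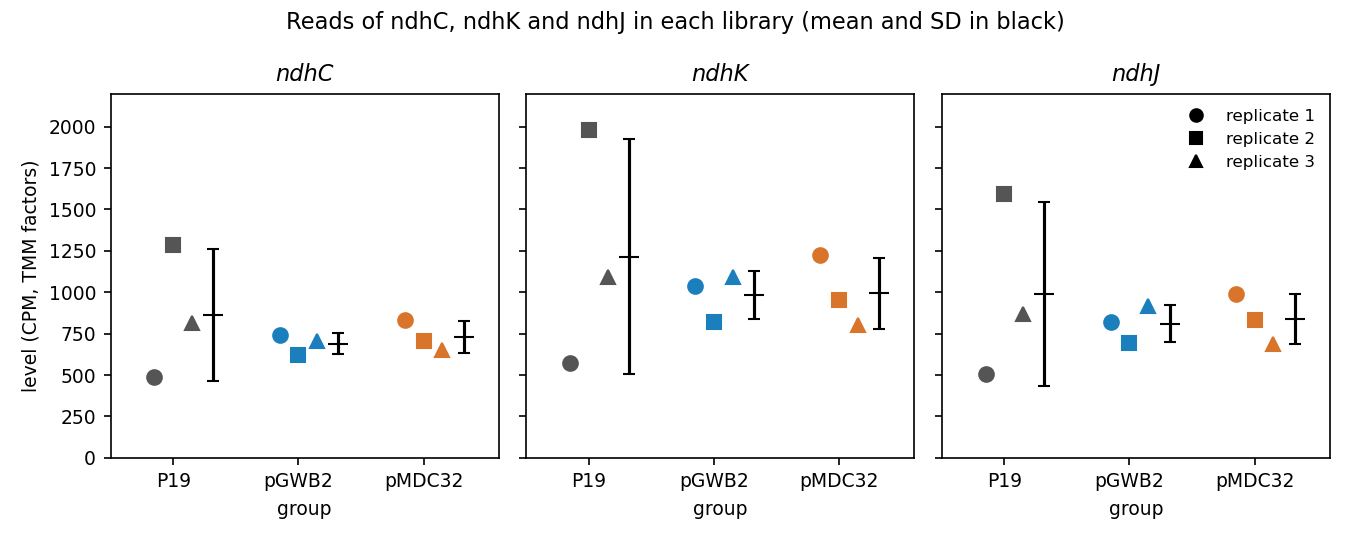
Level (CPM with TMM factors, linear axis from 0) of ndhC, ndhK and ndhJ in each library, with symbols for the replicate number and black bars for the mean and SD of each group (n = 3). In all 3 panels P19 replicate 1 is the lowest library and P19 replicate 2 the highest, as in the 574 and 1982 CPM of ndhK.

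Group means reflect this spread. For ndhC they were 863 ± 400 CPM (SD, n = 3) in P19, 688 ± 63.0 for pGWB2 and 729.6 ± 94.1 for pMDC32 (likewise n = 3). For ndhK they were 1215 ± 712, 984 ± 143 and 994 ± 214 CPM in the same order. For ndhJ they were 989 ± 553, 811 ± 111 and 837 ± 152 CPM. The SD in P19 was larger than in either editor group for each of the 3 genes.

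The spread in P19 was large beside that of most plastid genes, and the pattern was shared by other rows. On the log2 scale the SD over the 3 P19 libraries was 0.89 for ndhK, 0.83 for ndhJ and 0.69 for ndhC, ranks 3, 5 and 18 from the top of 105 rows, against a median of 0.36 over all rows. Over the 6 editor libraries the SDs were 0.24, 0.21 and 0.15, ranks 14, 19 and 53, with a median of 0.15. All 6 editor libraries lay inside the P19 range for 3 of the 3 operon genes and for 36 of the 105 plastid rows (34.3%). P19 replicate 1 was the lowest and P19 replicate 2 the highest of the 9 libraries for 3 of 3 operon genes and for 20 of 105 rows (19%).

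Against P19, none of the operon genes passed the test with either vector. With pGWB2 the log2 differences were -0.33 for ndhC (SE 0.30, 95% interval -0.99 to 0.34), -0.30 for ndhK (SE 0.38, -1.16 to 0.55) and -0.29 for ndhJ (SE 0.35, -1.08 to 0.51). With pMDC32 they were -0.24 for ndhC (SE 0.30, -0.91 to 0.43), -0.29 for ndhK (SE 0.38, -1.14 to 0.56) and -0.24 for ndhJ (SE 0.35, -1.04 to 0.55). In edgeR's quasi-likelihood test, with p-values adjusted over all rows after Benjamini and Hochberg, 0 of 3 operon genes were called in either comparison (smallest adjusted p = 0.639 and 0.667), where the background over the 105 plastid rows was 0 called (0%) as well. At an unadjusted p under 0.05, 6 rows stood in each comparison, none of them an operon gene, and DESeq2 called 1 row (0.952%) in each, again no operon gene. The 2 comparisons share the P19 libraries.

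The 6 editor libraries together against P19 gave log2 differences of -0.28 for ndhC (SE 0.24, 95% interval -0.82 to 0.25), -0.30 for ndhK (SE 0.31, -0.98 to 0.38) and -0.26 for ndhJ (SE 0.29, -0.90 to 0.37). Over all plastid rows the median was -0.08, with 44 of 105 rows above 0, and 0 rows were called (0%) by edgeR's quasi-likelihood test, 16 having an unadjusted p under 0.05, while DESeq2 called 3 (2.86%), no operon gene among them. Which P19 library was left out decided the direction. Without P19 replicate 1 the differences were -0.52 for ndhC (SE 0.17, 95% interval -0.88 to -0.16), -0.59 for ndhK (SE 0.21, -1.04 to -0.14) and -0.53 for ndhJ (SE 0.20, -0.97 to -0.10), with adjusted p-values of 0.200, 0.233 and 0.233 by edgeR's quasi-likelihood test, although the intervals lie below 0. Without P19 replicate 2 they were 0.15 (SE 0.18), 0.28 (SE 0.23) and 0.29 (SE 0.21). In both settings 0 of 3 operon genes and 0 of 105 rows (0%) were called, with 17 rows at an unadjusted p under 0.05 in the former and 40 in the latter.

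**Figure D2:**
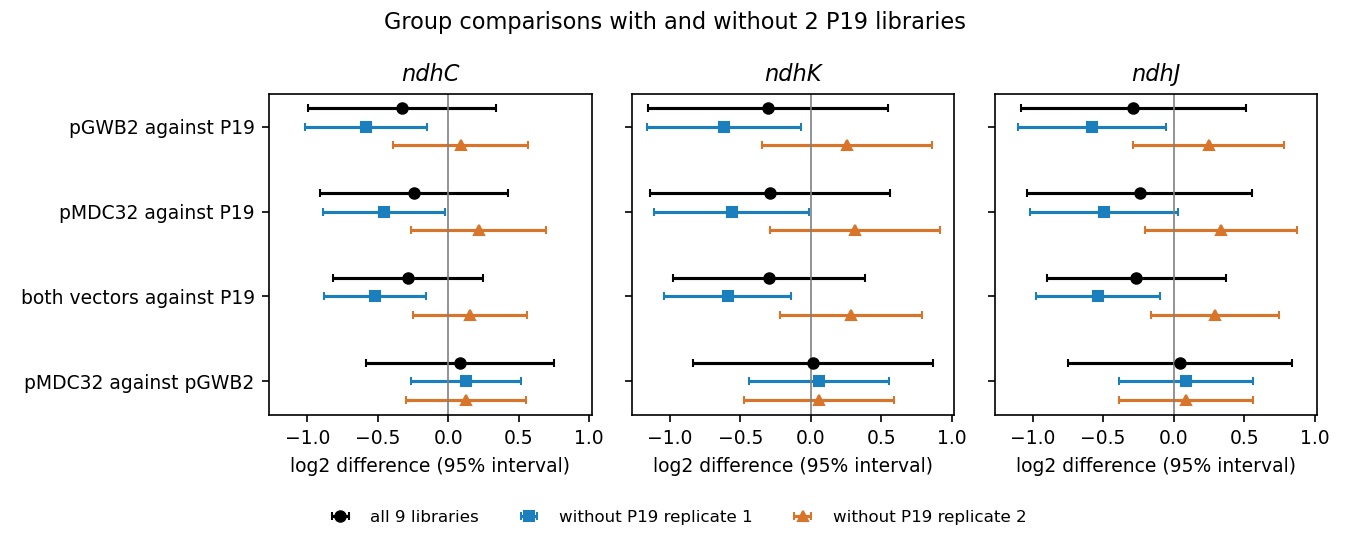
Log2 difference between groups with its 95% interval (horizontal bars) for ndhC, ndhK and ndhJ, from fits of all 9 libraries (black circles), without P19 replicate 1 (blue squares) and without P19 replicate 2 (orange triangles). The estimates of the 3 comparisons with P19 lie below 0 without replicate 1 and above 0 without replicate 2, as for ndhK over both vectors (-0.59 and 0.28).

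The sequencing lane, read from the column names, divided the P19 libraries in the same way. P19 replicate 1 was run on lane 8, P19 replicates 2 and 3 and all pGWB2 libraries on lane 4, pMDC32 replicates 1 and 2 on lane 8, and pMDC32 replicate 3 on lane 5. Within lane 4, pGWB2 minus P19 was -0.61 for ndhC (SE 0.20), -0.64 for ndhK (SE 0.23) and -0.60 for ndhJ (SE 0.23), and 0 of 105 rows (0%) were called by edgeR's quasi-likelihood test, 8 having an unadjusted p under 0.05. Within lane 8, pMDC32 minus P19 was 0.70 for ndhC (SE 0.19), 0.98 for ndhK (SE 0.24) and 0.90 for ndhJ (SE 0.20). The lane 8 fit has P19 replicate 1 as its only control library, which is assumed to vary like the 2 pMDC32 libraries. The levels of that library were among the values that chose these genes, so these differences are a description and not a test. Within that fit the lane is the same throughout, and pMDC32 replicate 1 also shares the 2 dpi label. Among the P19 libraries the lane, the labelled day and replicate 1 itself cannot be told apart. A fit of all libraries with the lane as covariate called 1 of 3 operon genes (ndhK) for pMDC32 against P19, beside 49 of 105 rows (46.7%), and 3 of 3 for pMDC32 against pGWB2, beside 40 of 105 (38.1%). It also takes the lane effect from P19 replicate 1 against P19 replicates 2 and 3. The P19 levels were among the values that chose the operon genes, so their calls in that fit are a description as well.

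Between the 2 vectors the operon genes differed by little, with intervals that were wide in the fit of all libraries. The log2 difference of pMDC32 from pGWB2 was 0.08 for ndhC (95% interval -0.58 to 0.75), 0.02 for ndhK (-0.84 to 0.87) and 0.05 for ndhJ (-0.75 to 0.84). In this fit 0 of 3 operon genes and 0 of 105 rows (0%) were called by edgeR's quasi-likelihood test, 1 row had an unadjusted p under 0.05, and DESeq2 called 0. These intervals carry the spread of the P19 libraries, which enter the fit although they are outside the comparison. Without P19 replicate 1 they narrowed to -0.26 to 0.52 for ndhC, -0.44 to 0.55 for ndhK and -0.39 to 0.56 for ndhJ, around differences of 0.13, 0.06 and 0.09. A fit of the 2 vector groups alone gave 0.07 for ndhC (-0.20 to 0.34), 0.002 for ndhK (-0.34 to 0.34) and 0.03 for ndhJ (-0.28 to 0.35). It called 1 of 105 rows (0.952%), which was no operon gene.

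The labelled day was tested with group in the model. Libraries labelled 2 dpi minus those labelled 3 dpi gave -0.16 for ndhC (SE 0.27), -0.19 for ndhK (SE 0.35) and -0.23 for ndhJ (SE 0.32), and 0 of 3 operon genes and 0 of 105 rows (0%) were called by edgeR's quasi-likelihood test, 12 rows having an unadjusted p under 0.05, while DESeq2 called 2 rows (1.9%), none of them an operon gene. Replicate 1 lay below the mean of replicates 2 and 3 in P19, by -1.06 for ndhC, -1.35 for ndhK and -1.22 for ndhJ on the log2 scale. It lay above that mean with pGWB2 (0.17, 0.13 and 0.04) and with pMDC32 (0.30, 0.49 and 0.39). The editor's effect at 2 dpi minus that at 3 dpi, added after results were seen, was called by edgeR's quasi-likelihood test for 3 of 3 operon genes and for 43 of 105 rows (41%), with P19 replicate 1 as the only control at 2 dpi. The levels of the P19 libraries were among the values that chose these genes, so that count is a description. Without P19 replicate 1 the day differences were 0.26 for ndhC, 0.32 for ndhK and 0.23 for ndhJ, from the editor groups alone, and 2 of 105 rows (1.9%) were called, neither of them an operon gene.

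Ratios within a library do not depend on the normalization and were narrower than the levels. Per length, ndhK over ndhC was 0.571, 0.752 and 0.654 in P19 replicates 1 to 3, 0.682, 0.648 and 0.757 with pGWB2, and 0.717, 0.661 and 0.602 with pMDC32. P19 replicate 1 had the lowest of these ratios, and the groups overlapped. Per length, ndhJ over ndhK was 1.38, 1.25 and 1.24 in P19, 1.23, 1.32 and 1.31 with pGWB2, and 1.26, 1.36 and 1.34 with pMDC32. This was the steadier pair. Its log2 ratio ranged over 0.16 across the 9 libraries, although the level of ndhK ranged 3.45-fold. Among 59 pairs of same-strand neighbouring protein-coding rows, the range of the log2 ratio had a median of 0.43, and ndhJ with ndhK had rank 8 from the smallest, while ndhK with ndhC, the pair whose rows overlap, ranged over 0.41 and stood at rank 27. The P19 and editor libraries were separated in 0 of these 2 operon pairs and in 3 of the 59 pairs (5.08%).

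**Figure D3:**
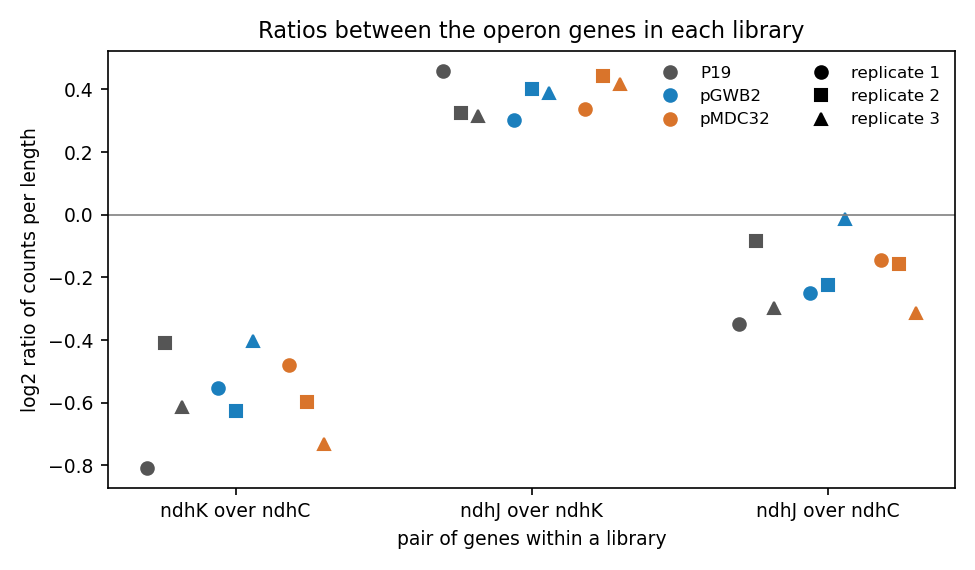
Log2 ratio of counts per length between pairs of operon genes in each of the 9 libraries, coloured by group, with symbols for the replicate number. The ndhJ over ndhK ratios lie within 0.16 of each other and above 0, the other 2 pairs lie below 0, and the groups overlap in every pair.

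Per length, the order of the 3 genes was the same in all 9 libraries, with ndhC above ndhJ and ndhJ above ndhK. Over 9 libraries the mean level was 2094 ± 612 CPM per kb for ndhC, 1843 ± 637 for ndhJ and 1431 ± 531 for ndhK (SD, n = 9). The means of ndhC and ndhJ, and those of ndhJ and ndhK, differed by less than the SD across libraries. The 3 genes rose and fell together, so that SD does not measure how steady their order was. Within a library ndhJ over ndhC was 0.786 to 0.991 and ndhJ over ndhK 1.23 to 1.38. Among the 11 plastid ndh genes ndhE, for a small membrane subunit, was highest (5813 ± 856 CPM per kb), and ndhH, for a peripheral subunit related to NuoD, was lowest (410.4 ± 90.3). By mean, ndhC stood at rank 2, ndhG at rank 3, ndhJ at rank 4 and ndhK at rank 5, followed by ndhB, ndhI and ndhD. From ndhC to ndhD, the means of neighbours in this order differed by less than the larger SD across libraries. In P19 replicate 1 the operon genes dropped to ranks 5, 6 and 9, and in P19 replicate 2 they stood at ranks 2, 3 and 4. The rows of ndhA and ndhB are far longer than the coding sequences, since these genes hold an intron, so their levels per kb are lower than per coding length.

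The other 8 plastid ndh genes did not show the operon's pattern in P19 replicate 2. Relative to the mean of the 6 editor libraries, that library was higher by 0.86 for ndhC, 1.02 for ndhK and 0.96 for ndhJ on the log2 scale, while the other 8 ranged from -0.44 (ndhB) to 0.10 (ndhG). From the lowest value of the 105 rows in that library, these stood at ranks 99, 104 and 103. In P19 replicate 1 the operon genes lay at -0.52, -0.77 and -0.69. There ndhH stood lower still at -0.95, and ndhI, for an iron-sulphur subunit of the peripheral arm, at -0.41. Above the editor mean stood ndhE (0.52), ndhD (0.45) and ndhF (0.46), for membrane subunits. The arms were not separated, since ndhC is of the membrane arm, as are ndhA (-0.24), ndhB (-0.06) and ndhG (0.11). P19 replicate 3 lay between -0.26 (ndhH) and 0.20 (ndhC) of the editor mean over the 11 genes.

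**Figure D4:**
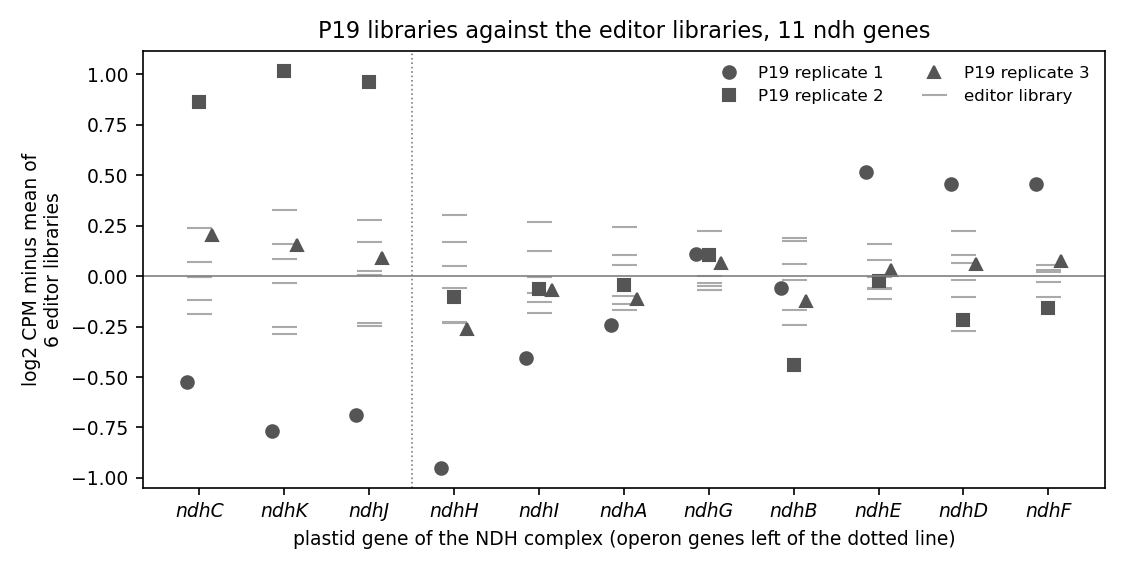
Log2 CPM of each P19 library minus the mean of the 6 editor libraries for the 11 plastid ndh genes, with grey dashes for the editor libraries and the operon genes left of the dotted line. P19 replicate 2 lies at 0.86 to 1.02 in the operon genes and at -0.44 to 0.10 in the others, while P19 replicate 1 is low in the operon genes and in ndhH.

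In the fit of all 9 libraries with both vectors together, none of the 11 ndh genes was called. Of these, 4 lay above P19 and 7 below (median -0.12), against 44 of 105 rows above (median -0.08). The members above were ndhH at 0.41 (SE 0.20), ndhB at 0.21 (SE 0.14), ndhI at 0.18 (SE 0.14) and ndhA at 0.14 (SE 0.12). Below lay the operon genes with ndhE at -0.19, ndhF at -0.15, ndhD at -0.12 and ndhG at -0.09. Within lane 8, where P19 replicate 1 is the only control, pMDC32 minus P19 in the 8 genes outside the operon ran from -0.55 (ndhD) and -0.53 (ndhE) to 1.11 (ndhH). In the fit of all 9 libraries the membrane arm had 2 of 7 members above P19 and the peripheral arm 2 of 4. Without P19 replicate 1, 7 of 11 ndh genes lay above P19 (median 0.09), and of the 8 outside the operon 7 did, where 59 of all 105 rows lay above (median 0.02). Of the complexes that work with NDH in electron transport, photosystem I had 2 of 5 listed genes above P19 (median -0.29) and cytochrome b6f 1 of 6 (median -0.25), with 0 of either called. These counts were 5 of 5 and 5 of 6 without P19 replicate 1.

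Along the plastid sequence the operon's pattern continued into trnF, for a phenylalanine tRNA, and was weaker or absent in the other near rows. The trnF row, 73 nt on the opposite strand, had 32.7, 130.5 and 58.1 CPM in P19 replicates 1 to 3, 47.8, 37.5 and 64.8 CPM with pGWB2, and 63.1, 49.8 and 43.5 CPM with pMDC32. P19 replicate 1 was again the lowest library and replicate 2 the highest. Relative to the editor mean, P19 replicate 2 stood at 1.38 for trnF on the log2 scale, the highest of all 105 rows, at 0.41 for trnT (a threonine tRNA) and at 0.17 for rps4 (a small ribosomal subunit protein). Upstream it stood at -0.18 for trnM (a methionine tRNA), -0.49 for atpE and -0.43 for atpB, both for subunits of the ATP synthase. The sources used here do not give the strand setting of the counting, so reads of the operon's strand that run past ndhJ and reads of trnF itself cannot be told apart.

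**Figure D5:**
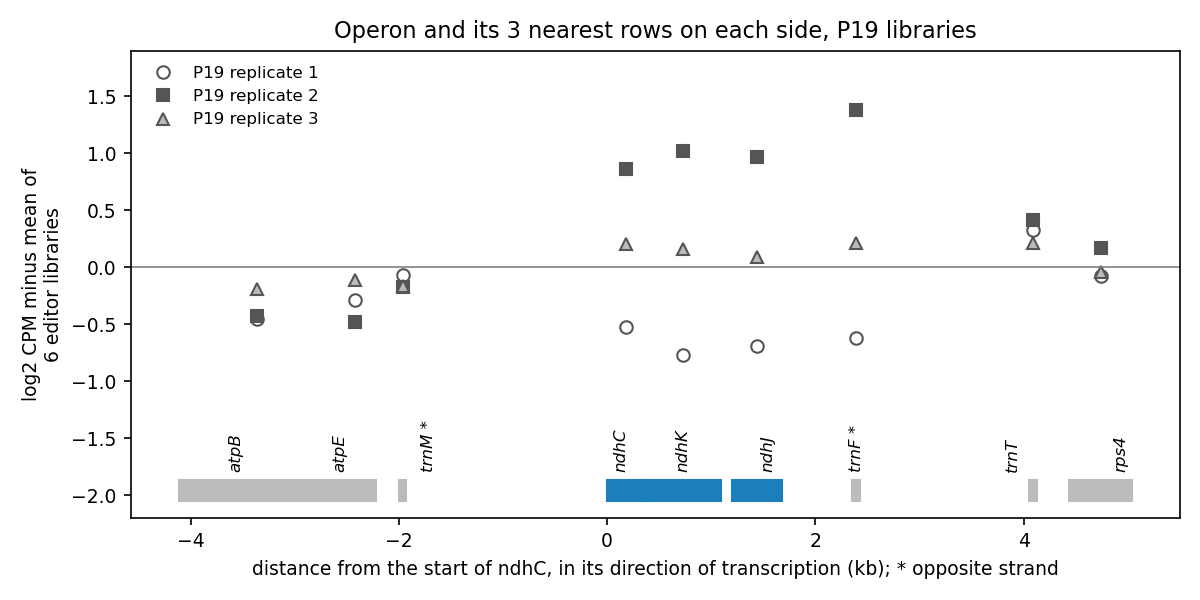
Log2 CPM of each P19 library minus the mean of the 6 editor libraries for the operon (blue boxes) and its 3 nearest rows on each side (grey boxes), placed by distance in kb from the start of ndhC along its direction of transcription. P19 replicate 2 is 0.86 to 1.38 above 0 from ndhC to trnF and -0.49 to 0.41 outside.

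Genes with a similar pattern were ranked by Pearson's r, across the 9 libraries, between log2 CPM of a row and the mean log2 CPM of the operon genes. The operon genes correlated with each other at 0.978 to 0.996 across 9 libraries, and at 0.887 to 0.981 across the 6 editor libraries. Of the other 102 plastid rows (median r 0.08), trnF had the highest r (0.971), which was 0.977 without P19 replicate 1, 0.928 without P19 replicate 2 and 0.896 in the 6 editor libraries. Next came ycf2, for a large protein of the chloroplast envelope (146634 to 153476), at 0.952 and at 0.856 in the editor libraries. Ranks 3 and 4 went to ycf15 and trnL, at 0.931 and 0.873, which lie next to ycf2 and far from the operon, and in the editor libraries their r was 0.621 and 0.508. The region of ycf2, ycf15 and trnL, and of ndhB beside it, belongs to the plastid inverted repeat, so their reads have a near-identical copy and their counts are uncertain. Rank 5 went to rpoC1, for a subunit of the plastid RNA polymerase, at 0.854, which rested on the P19 libraries, since r was 0.0453 in the editor libraries. The lowest r belonged to psbI, for a small subunit of photosystem II, at -0.883 (-0.832 in the editor libraries) and to trnW, for a tryptophan tRNA, at -0.881 (-0.0110 in the editor libraries). With scaling by library totals in place of TMM factors, r was -0.885 for psbI and -0.688 for trnW. The libraries share one table and one scaling, so r is a description of these 9 libraries.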

How the data were processed

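Leaf RNA was freed of ribosomal RNA before directional libraries were prepared, per the labels' protocols. The values are raw counts per gene that the authors deposited without normalization. Tools named in the submitters' processing notes are HISAT2 2.2.1 and DESeq2 1.42.0, with Trim Galore 0.6.10, featureCounts 2.0.1 and FastQC 0.12.1. Genome build, strand setting and handling of multiply mapped reads: not given in the sources used here. Libraries held 32457135 to 44392760 counts. Groups and replicate numbers came from sample titles, and row lengths from the deposited table.

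All 106 rows entered edgeR 4.0.16 (R 4.3.3) with TMM normalization, filterByExpr and the quasi-likelihood test. Two-sided p-values were adjusted after Benjamini and Hochberg across the whole table, and rows under 0.05 were called. The 3 groups were compared in 1 fit, both vectors against P19 in another, and labelled days with the group as covariate. SEs come from the F statistic. The test was checked on simulated data for both vectors against P19, with the same spread of a gene in all groups. The larger spread of the real P19 libraries and the fits of fewer libraries were not simulated. Alternatives were other scalings, DESeq2, no filter, rows left out, each library left out, a replicate block, day or lane as covariate, and subsets of libraries. The genes and lists were chosen with earlier results of these data known. Named genes were the operon genes, the other ndh genes and the 3 nearest rows on each side. The 5 rows with the highest and 2 with the lowest r to the operon, psbA and the transgene were named as well. Other rows called in a fit were counted and not named. Replicates of a group differed by more than sampling noise (1350 to 21044 for chi-square over its degrees of freedom), and each was counted as a sample of its own.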

Additional observations from a re-analysis of the deposited data

Results flagged for a closer look

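P19 replicate 2 stood far from the other 5 libraries labelled 3 dpi in all 3 operon genes. Its level was 1285.2 CPM for ndhC, 1982.0 CPM for ndhK and 1592.6 CPM for ndhJ, and its gap to the next library was 0.708, 0.754 and 0.746 of the range, above Dixon's 95% value of 0.625 for 6 libraries. Of 12 sets of 6 libraries examined these 3 exceeded it. Chance gives about 1 in 20 for genes not chosen by their levels. Here the P19 levels were among the values that chose the genes, and the 3 sets are the same libraries, so the gaps are a description and not a test. The libraries are of 3 groups, and P19 replicate 3 was not apart.

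The difference between the editor's effect at 2 dpi and that at 3 dpi was fitted with edgeR's quasi-likelihood method, an added comparison chosen after results were seen. It was 1.33 for ndhC (SE 0.29), 1.72 for ndhK (SE 0.38) and 1.49 for ndhJ (SE 0.38) on the log2 scale. Of the 105 plastid rows 43 (41%) were called in that fit, 25 up and 18 down. The control at 2 dpi is a single library, assumed to vary like the others, and its levels were among the values that chose the genes, so these values are a description and not a test of the operon genes. The 2 editor libraries labelled 2 dpi lay above P19 replicate 1, by 0.60 to 0.76 for ndhC, 0.85 to 1.09 for ndhK and 0.69 to 0.97 for ndhJ on the log2 scale. The 4 editor libraries labelled 3 dpi lay below the mean of P19 replicates 2 and 3, by -0.72 to -0.54, -0.87 to -0.43 and -0.77 to -0.36. That mean includes the high P19 replicate 2. Against P19 replicate 3 alone, all 4 were lower for ndhC. There pGWB2 replicate 3 was higher for ndhK (1093.4 against 1089.6 CPM) and ndhJ (918 against 868 CPM), and the rest were lower. P19 has 1 library labelled 2 dpi, which is replicate 1, so the day and that library cannot be told apart.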

How the results depend on the processing

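Directions of the operon genes against P19 depended on single P19 libraries. Leaving out each library in turn gave, with pGWB2, -0.58 to 0.0882 for ndhC, -0.62 to 0.26 for ndhK and -0.58 to 0.25 for ndhJ. With pMDC32 the ranges were -0.46 to 0.22, -0.56 to 0.31 and -0.49 to 0.34, and with both vectors -0.52 to 0.15, -0.59 to 0.28 and -0.53 to 0.29. In these 3 comparisons only the fit without P19 replicate 2 turned the sign among the leave-one-out fits, and 0 genes were called in each of those fits. Between vectors the ranges were -0.0225 to 0.19, -0.16 to 0.13 and -0.10 to 0.15, again with 0 calls, and between labelled days -0.42 to 0.26, -0.58 to 0.32 and -0.58 to 0.23, with 0 to 2 calls.

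With the lane as covariate pMDC32 minus P19 turned to 0.65 for ndhC, 0.92 for ndhK and 0.85 for ndhJ (adjusted p = 0.0674, 0.0453 and 0.0541 by edgeR's quasi-likelihood test), with 49 plastid genes called, and in lane 8 alone to 0.70, 0.98 and 0.90 with 51 called, there also for both vectors. Both rest on P19 replicate 1 as the control of lane 8. With that covariate the other comparisons with P19 kept their sign, at -0.61, -0.64 and -0.60 for pGWB2 and -0.20, -0.15 and -0.14 for both vectors (ndhC, ndhK and ndhJ), with 0 of 105 called in each. The same covariate gave 1.26 for ndhC, 1.57 for ndhK and 1.45 for ndhJ for pMDC32 minus pGWB2, with 40 called, since the lanes are linked only through P19. Small differences between vectors turned sign for ndhK without rRNA and tRNA rows (-0.0028) and in the 3 dpi libraries alone for ndhK (-0.0857) and ndhJ (-0.0494). Calls over all plastid genes were 1, 1, 3 and 2 by DESeq2 for pGWB2, pMDC32, both vectors and the labelled day, 2 for the day with library totals alone, and 1 between vectors in a fit of those groups. None of these was an operon gene. Scaling by library totals moved the median of all plastid rows from -0.08 to 0.10 for both vectors, from -0.11 to 0.11 for pMDC32 and from -0.04 to -0.23 for the day, and changed no sign of the operon genes. The cause of these changes was not tested.

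Replicate numbers gave no clear sign of pairing: same-numbered libraries had deviations from their group mean that correlated at -0.524 to 0.719. The highest value was that of replicate 1 of pGWB2 with replicate 1 of pMDC32, and 2 of 9 libraries correlated best with their own number. With 3 libraries a group, pairing is not excluded by these values. With the replicate block the differences over both vectors were -0.23, -0.22 and -0.18 for ndhC, ndhK and ndhJ, those of pGWB2 -0.27, -0.22 and -0.20, those of pMDC32 -0.19, -0.21 and -0.16, and those between vectors 0.08, 0.01 and 0.04. The block made 0 calls. With 3 libraries a group, the spread between libraries and not the counting of reads limits what could be detected.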
